A study of Mus musculus with 6 samples.

Results

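The genes described here are 33 genes of glycolysis and of the response to low oxygen, chosen by symbol from a list that covers each enzyme step from glucose to lactate, the oxygen-regulated transcription factor subunit HIF-1α with a pair of its hydroxylases, and well-known HIF targets. All 33 symbols were found among the 19309 genes of the count table. *Aldoa* was carried by a pair of gene identifiers, one of which (ENSMUSG00000114515) held a mean under 5 counts and was not tested, so that 34 rows of the table belong to the list.

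RNA was sequenced from M2c-polarized macrophages grown from the bone marrow of 3 sEH-/- mice and 3 wild-type mice, with 1 library per mouse. sEH is the soluble epoxide hydrolase, an enzyme encoded by *Ephx2* that hydrolyzes fatty acid epoxides made by cytochrome P450 enzymes. The knockout is a germline deletion carried by every cell, and the wild-type mice were littermates of the same strain and 8 to 10 weeks old, as were the sEH-/- mice. The paper reports sEH levels that differ by sex and states that most of its experiments used female cells. It does not give the sex separately for the sequenced mice. In both genotypes marrow cells grew for 7 days with 15 ng/mL each of M-CSF and GM-CSF. They then received 10 ng/mL LPS together with 1 ng/mL IFN-γ, which gives inflammatory M1 macrophages, and were repolarized by 10 ng/mL TGF-β1. The LPS step lasted 12 h by the methods and 24 h by the labels, and the TGF-β1 step 48 h by the labels and either 24 h or 48 h by the methods. All 6 libraries therefore come from cells that had seen LPS, IFN-γ and TGF-β1, and no untreated or hypoxic cells were compared. Since the samples are bulk RNA, fewer expressing cells and less RNA per cell cannot be told apart.

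Glycolysis splits glucose into pyruvate in the cytosol. Macrophages exposed to LPS are known to draw on it heavily and to turn much of the pyruvate into lactate, partly because LPS raises HIF-1α even in the presence of oxygen. HIF-1α is hydroxylated by the Egln enzymes when oxygen is available and is then degraded, and when it escapes this it binds DNA at a short motif, ACGTG or GCGTG, near genes for glucose transport, glycolysis, vessel growth and mitophagy. The comparison asks whether loss of the sEH left these transcripts at another level after repolarization.

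None of the 33 genes passed the criteria for a change between the genotypes (adjusted p below 0.05 in edgeR's quasi-likelihood test together with a change of more than 1.5-fold), beside 2.61% of the 13785 genes tested. Without the fold criterion 0 of the 33 had an adjusted p below 0.05, beside 4.01% of all tested genes. With 33 genes a count of 0 does not set the list apart from either share. Most glycolytic enzymes and *Hif1a* were abundant and lay close to their wild-type level in sEH-/- cells. Among these enzymes *Pfkm* (84.3% of wild-type) and *Pfkl* (114.6%) lay furthest from it. At the other end of the list, *Adm*, encoding the vasodilator peptide adrenomedullin, had 31.6% of its wild-type level, and *Ndrg1*, a stress-responsive gene and HIF target, had 73.4%. Both were lower in every sEH-/- library than in any wild-type library, with adjusted p values of 0.0557 and 0.0625 from edgeR, above the threshold. At an unadjusted p below 0.05, 1 of the 33 genes was higher (*Egln3*) and 3 were lower (*P4ha2*, *Ndrg1* and *Adm*) in sEH-/- cells, 4 in all, where 23.4% of all tested genes had such a p. DESeq2 with the same criteria called 1 of the 33 genes, *Adm*, and limma-voom called 0.

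The log2 fold changes (sEH-/- over wild-type) of the 33 genes had a median of 0.064, beside −0.00092 over all tested genes, and 29 of the 33 lay between −0.2 and 0.2, as did 58.4% of all tested genes. For 31 of the 33 genes the whole 95% interval of the log2 fold change lay inside a 1.5-fold change in either direction, beside 61.0% of all tested genes. The exceptions were *Ndrg1* and *Adm*. The 33 genes also held more counts (median of the mean counts 843.5) than all tested genes (242). These shares were not compared at matched counts, so they do not show that the list was unusually stable. Above 0 were 25 of the 33, beside 49.8% of all genes. Single libraries moved this small median. It was 0.12 without sEH-/- replicate 1, 0.11 without wild-type replicate 1, 0.033 without wild-type replicate 2 and 0.021 without sEH-/- replicate 3. Genotypes did not overlap in 5 of the 33 genes, 3 of them higher (*Hk1*, *Pfkp* and *Egln3*) and 2 lower (*Ndrg1* and *Adm*) in sEH-/- libraries, whereas they did not overlap in 26.3% of all tested genes (11.8% higher, 14.5% lower).

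**Figure D1:**
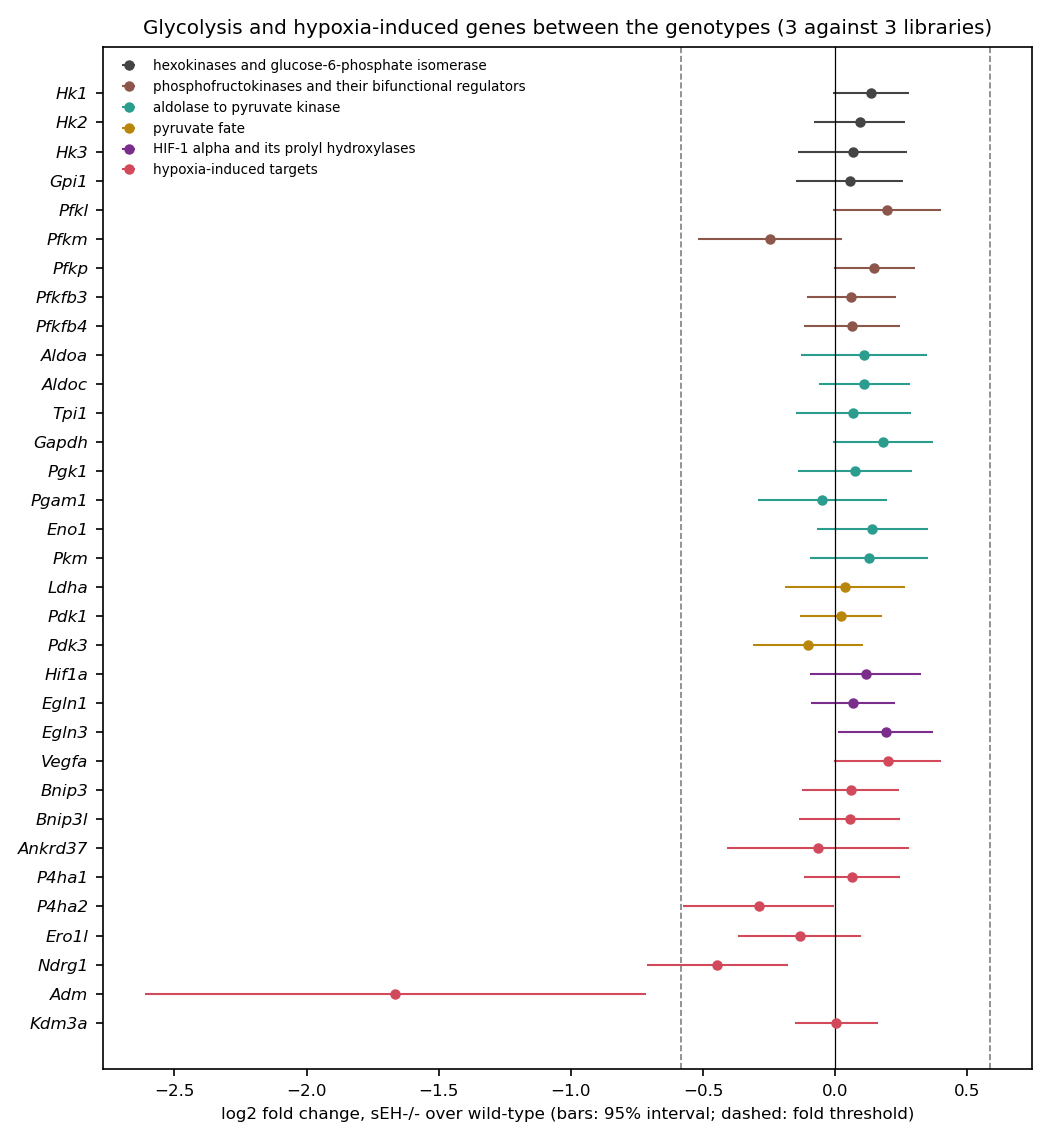
Log2 fold change, sEH-/- over wild-type, of each of the 33 genes (rows, colored by role) with its 95% interval from the edgeR fit (3 against 3 libraries). The dashed lines mark a 1.5-fold change in either direction, and the intervals of all genes except *Ndrg1* and *Adm* lie between them.

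The libraries held between 4400197 and 6096440 counts, of which the 33 genes took 0.541% to 0.608%. *Ephx2*, the deleted gene, had 1 to 4 counts per sEH-/- library and 26 to 57 per wild-type library (log2 fold change −4.05, adjusted p = 0.0042 from edgeR). All 9 macrophage markers of a fixed list were present, with a summed level of 2416 to 2939 CPM (counts brought to one library size) in sEH-/- and 2113 to 2631 CPM in wild-type libraries. All 9 had a log2 fold change above 0 (median 0.24), 4 of them with an unadjusted p below 0.05 (11.1% of all tested genes were higher by this criterion), and 1, *Cd14*, named after its values were seen, had an adjusted p below 0.05 (log2 fold change 0.50, edgeR adjusted p = 0.029). Neutrophil markers summed to 28.4 to 32.1 CPM in sEH-/- and 17.6 to 21.2 CPM in wild-type libraries, nearly all of it *S100a8*, while the defining neutrophil genes *Elane*, *Ltf*, *Camp*, *Ngp* and *Cxcr2* had means of at most 1.08 CPM in either genotype. Dendritic cell markers summed to 29.6 to 59.6 CPM in sEH-/- and 45.7 to 62.3 CPM in wild-type libraries, and the 4 of them that were tested had log2 fold changes below 0 (median −0.51, lowest adjusted p = 0.11). Lymphocyte markers summed to 16.4 to 35.9 and 20.7 to 30.7 CPM, erythroid markers to 0.81 to 3.94 and 1.32 to 3.76 CPM, and stromal markers to 16.9 to 35.2 and 12.8 to 67.7 CPM. Their part in the values below was not tested. Leaving out a library changed the number of genes called over the whole table from 360 to 518, 96 and 570 (without sEH-/- replicates 1, 2 and 3) and to 625, 25 and 6 (without wild-type replicates 1, 2 and 3).

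Promoter sequences are shown for 3 genes of the list whose libraries did not overlap between the genotypes, those with the smallest adjusted p that had a promoter entry (1 lower and 2 higher in sEH-/- cells), because HIF is known to act on genes of this kind through its motif. They are RefSeq promoters of mouse build GRCm38.p6 (the same assembly as mm10), from 250 bases before to 50 bases after the transcript start, written 5′ to 3′ on the strand of the gene, with the motif ACGTG or GCGTG, or its reverse complement CACGT or CACGC, in capitals. *Adm* lies on the plus strand (chr7:110627407-110627706), *Egln3* (chr12:54203825-54204124) and *Pfkp* (chr13:6648722-6649021) on the minus strand.
Adm: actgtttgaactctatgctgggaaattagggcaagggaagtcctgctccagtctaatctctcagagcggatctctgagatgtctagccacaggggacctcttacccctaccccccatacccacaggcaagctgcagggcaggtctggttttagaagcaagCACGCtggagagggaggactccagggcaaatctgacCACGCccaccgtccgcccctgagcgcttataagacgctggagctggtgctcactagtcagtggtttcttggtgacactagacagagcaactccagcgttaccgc
Egln3: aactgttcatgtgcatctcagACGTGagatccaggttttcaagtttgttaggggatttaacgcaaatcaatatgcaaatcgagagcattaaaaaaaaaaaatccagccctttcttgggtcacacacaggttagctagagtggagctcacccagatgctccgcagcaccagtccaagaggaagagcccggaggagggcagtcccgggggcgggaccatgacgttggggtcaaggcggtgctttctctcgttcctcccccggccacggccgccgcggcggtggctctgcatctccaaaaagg
Pfkp: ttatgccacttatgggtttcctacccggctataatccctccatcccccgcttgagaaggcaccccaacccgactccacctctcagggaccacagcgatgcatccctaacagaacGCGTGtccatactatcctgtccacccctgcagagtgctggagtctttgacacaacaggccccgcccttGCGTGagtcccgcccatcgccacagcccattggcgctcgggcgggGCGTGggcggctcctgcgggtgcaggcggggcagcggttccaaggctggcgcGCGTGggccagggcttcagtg

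The *Adm* promoter held 2 copies of GCGTG, both on the opposite strand, that of *Egln3* 1 copy of ACGTG and that of *Pfkp* 4 copies of GCGTG. Promoter entries were at hand for 30 of the 33 genes (46 promoters), with none for *Ero1l*, *Ndrg1* and *Bnip3l*. On either strand, 78.3% of these 46 promoters held at least 1 such motif, beside 43.8% of all 32851 mouse promoters of this length. Counted by gene, 28 of the 30 genes (93.3%) had it in at least 1 promoter, beside 46.7% of all 27025 genes. The list was chosen to hold well-known HIF targets, so a higher share can follow from that choice. Promoter entries per gene and base composition were not matched between the list and all genes. ACGTG and CACGT can overlap by their shared letters. Letters in a promoter are a description and do not show binding. Motif-bearing promoters occurred in genes that were lower, higher or overlapping between the genotypes.

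*Hif1a*, encoding the oxygen-regulated subunit of HIF-1, was among the most abundant genes of the list. It had 349.9, 362.0 and 414.4 CPM in sEH-/- and 377.5, 341.9 and 320.0 CPM in wild-type libraries. The genotypes overlapped, with a log2 fold change of 0.12 (95% interval −0.095 to 0.33, adjusted p = 0.51 from edgeR). *Egln1* encodes the main oxygen sensor among the prolyl hydroxylases that mark HIF-1α for degradation. It had 153.1, 171.9 and 170.4 CPM in sEH-/- and 157.4, 151.6 and 163.5 CPM in wild-type libraries, which overlapped (log2 fold change 0.067, adjusted p = 0.63).

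*Egln3* encodes a further HIF prolyl hydroxylase that is itself induced by HIF, and lies on chromosome 12 of mm10 from 54178981 to 54203860. Its level was 90.8, 97.1 and 109.4 CPM in sEH-/- and 86.2, 87.8 and 85.9 CPM in wild-type libraries. All sEH-/- libraries were above all wild-type libraries, with 99.1 ± 9.47 CPM (SD, n = 3) against 86.6 ± 1.03 CPM (SD, n = 3). A log2 fold change of 0.19 (SE 0.081, 95% interval 0.0099 to 0.37) had an unadjusted p of 0.041 and an adjusted p of 0.19 from edgeR, and it was not called under any alternative.

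Of the genes acting on HIF outside the list, 13 of 14 listed were tested and none was called, beside 2.61% of all tested genes, a share that would give less than 1 call in such a list. *Siah2*, encoding a ubiquitin ligase that targets Egln enzymes for degradation, had an adjusted p below 0.05 but too small a change for a call. It had 39.3, 39.8 and 39.2 CPM in sEH-/- and 46.8, 53.7 and 58.1 CPM in wild-type libraries (log2 fold change −0.43, SE 0.10, edgeR adjusted p = 0.047). *Egln2*, the remaining HIF prolyl hydroxylase of this family, had 75.5, 80.7 and 70.3 CPM in sEH-/- and 63.8, 57.8 and 59.2 CPM in wild-type libraries, which did not overlap either (log2 fold change 0.33, SE 0.084, adjusted p = 0.054). The constitutive partner of HIF-1α, *Arnt*, was at −0.23 (adjusted p = 0.096) and *Vhl*, which recognizes hydroxylated HIF-1α, at 0.067 (adjusted p = 0.61). These 2 genes were chosen after their values were seen.

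The first step of glycolysis, the phosphorylation of glucose, is carried out by hexokinases. *Hk3* was the most abundant of them per kilobase of exon, with 342.7, 381.6 and 391.2 CPM in sEH-/- and 393.1, 327.6 and 344.7 CPM in wild-type libraries. *Hk2*, the inducible hexokinase that responds to HIF, followed with 383.1, 392.9 and 406.5 CPM in sEH-/- and 390.7, 363.1 and 355.3 CPM in wild-type libraries. Both overlapped between the genotypes, with log2 fold changes of 0.067 (adjusted p = 0.72) and 0.093 (adjusted p = 0.52).

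*Hk1*, the hexokinase found in most tissues, lies on chromosome 10 from 62268855 to 62379908. It had 194.7, 202.0 and 198.0 CPM in sEH-/- and 184.5, 182.9 and 173.9 CPM in wild-type libraries. The genotypes did not overlap, with sEH-/- cells at 109.9% of wild-type and a 95% interval of the change from −0.59% to 21.5% (log2 fold change 0.14, SE 0.065, edgeR adjusted p = 0.24). *Gpi1*, the isomerase of the next step, was at 103.9% of wild-type (adjusted p = 0.77).

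Phosphofructokinase, the committed step, is a tetramer of the subunits Pfkl, Pfkm and Pfkp, whose names come from liver, muscle and platelet. *Pfkp* (chromosome 13, 6579768 to 6648777) had 212.7, 223.0 and 213.3 CPM in sEH-/- and 206.2, 189.4 and 190.4 CPM in wild-type libraries, without overlap (log2 fold change 0.15, SE 0.069, edgeR adjusted p = 0.23). *Pfkl*, the most abundant subunit per kilobase, had 263.0, 305.5 and 296.8 CPM in sEH-/- and 274.6, 226.7 and 254.2 CPM in wild-type libraries, which overlapped (0.20, SE 0.093, adjusted p = 0.23). *Pfkm*, the scarcest, had the opposite sign, at 84.3% of wild-type (log2 fold change −0.25, SE 0.12, adjusted p = 0.26).

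The bifunctional enzymes Pfkfb3 and Pfkfb4 set the level of fructose 2,6-bisphosphate, the activator of phosphofructokinase, and both respond to HIF. *Pfkfb3* had 381.7, 388.4 and 393.5 CPM in sEH-/- and 393.1, 359.4 and 363.0 CPM in wild-type libraries. The values overlapped, with log2 fold changes of 0.061 for *Pfkfb3* (adjusted p = 0.68) and 0.063 for *Pfkfb4* (adjusted p = 0.70).

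The balance between isoforms of a step can be given without library scaling factors, as a share of the counts per exonic base within the step. Such shares still depend on the length used and on library depth. *Pfkp*, for example, has 13401 exonic bases but 4145 in its longest coding transcript. *Hk1*, *Hk2* and *Hk3* made up 12.2%, 34.7% and 53.0% of the hexokinase signal in sEH-/- and 11.8%, 34.5% and 53.7% in wild-type cells, all overlapping. Among the phosphofructokinases, the share of *Pfkl* was 60.1%, 63.0% and 60.2% in the sEH-/- libraries, as against 59.4%, 54.6% and 58.1% for wild-type. That of *Pfkm* was 15.6%, 14.1% and 18.3% in the sEH-/- libraries, as against 18.4%, 22.7% and 20.3% for wild-type. Neither overlapped between the genotypes, *Pfkl* being higher and *Pfkm* lower in sEH-/- libraries, and the shares of 1 step are tied to each other. For both the exact permutation test gave p = 0.1 (two-sided, n = 3 against 3), the smallest p this design allows, and 0.55 after adjustment over the 11 shares compared. sEH-/- replicate 3 and wild-type replicate 1 nearly met in the *Pfkm* share. Wild-type replicate 2, the deepest library, held 1.50 times the *Pfkm* counts of wild-type replicate 1, but only 1.12 times its *Pfkl* counts. The part of library depth in these shares was not tested. The shares of *Pfkp*, *Pfkfb3*, *Aldoa* (over *Aldoc*), *Pdk1* (over *Pdk3*), *Egln1* (over *Egln3*) and *P4ha1* (over *P4ha2*) overlapped between the genotypes.

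**Figure D2:**
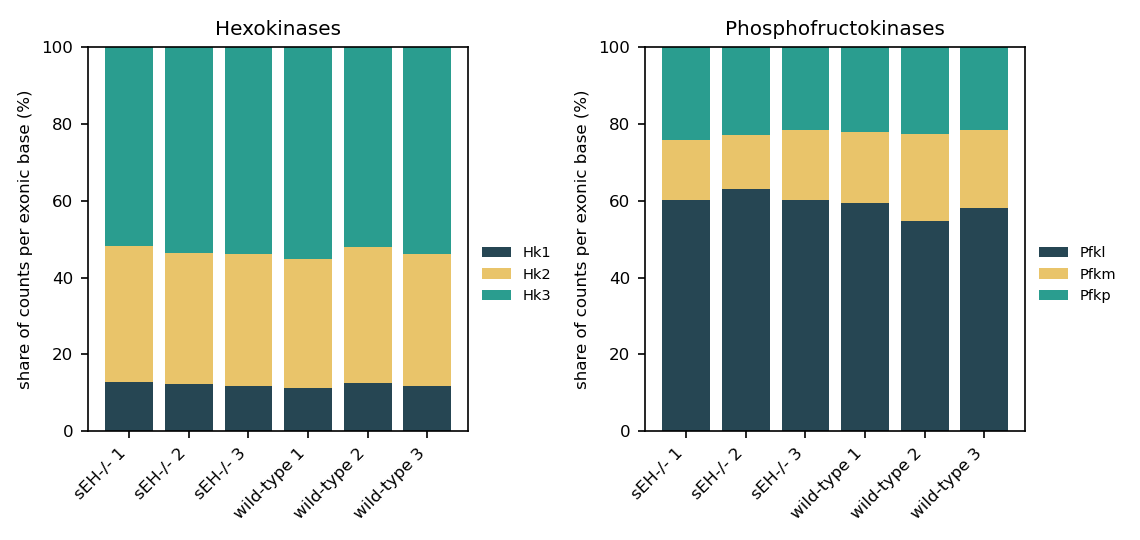
Share of each isoform in the counts per exonic base of its step (y axis, percent) in each of the 6 libraries, for the hexokinases (left) and the phosphofructokinases (right). *Hk3* holds about the same part in all libraries, while *Pfkm* takes 14.1% to 18.3% in sEH-/- and 18.4% to 22.7% in wild-type libraries.

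Of the 8 genes from aldolase to pyruvate kinase, 7 had a log2 fold change above 0, as did 49.8% of all tested genes. None of the 8 was called and none separated the genotypes, beside 2.61% and 26.3% of all tested genes, and with 8 genes a count of 0 calls does not set them apart from that share. Their median log2 fold change was 0.11. *Aldoa*, the aldolase that splits fructose 1,6-bisphosphate and the most abundant of this group per kilobase, had 221.2, 255.5 and 286.8 CPM in sEH-/- and 261.8, 213.0 and 232.3 CPM in wild-type libraries. *Tpi1*, the triose phosphate isomerase, had 159.4, 185.6 and 194.3 CPM in sEH-/- and 191.5, 155.6 and 167.4 CPM in wild-type libraries. In both genes wild-type replicate 1 lay above sEH-/- replicates 1 and 2, so that the genotypes overlapped. Log2 fold changes were 0.11 for *Aldoa* (95% interval −0.13 to 0.35) and 0.068 for *Tpi1* (−0.15 to 0.29).

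*Gapdh*, the dehydrogenase often used as a reference gene, was at 113.4% of wild-type (log2 fold change 0.18, SE 0.085, edgeR adjusted p = 0.23). *Aldoc* was at 0.11, the phosphoglycerate kinase *Pgk1* at 0.075, the enolase *Eno1* at 0.14 and the pyruvate kinase *Pkm* at 0.13, with adjusted p values between 0.41 and 0.69. *Pgam1*, the phosphoglycerate mutase, was at −0.048 (adjusted p = 0.84). Reads mapping to several places were removed from these counts, and genes such as *Gapdh*, *Pgk1*, *Pgam1* and *Eno1* have near-identical processed copies elsewhere in the genome, so that their levels are uncertain. *Eno1b*, such a copy of *Eno1*, held a mean of 4.67 counts and was not tested.

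*Ldha*, encoding the lactate dehydrogenase subunit that turns pyruvate into lactate, had 210.1, 237.5 and 257.4 CPM in sEH-/- and 258.1, 205.4 and 223.7 CPM in wild-type libraries. The highest and the lowest value both belonged to wild-type libraries, and the log2 fold change was 0.037 (95% interval −0.19 to 0.26, adjusted p = 0.87 from edgeR). Its sign turned with the longest transcript used for the ceiling of counts described below, with the library total as a covariate, and when sEH-/- replicate 3 or wild-type replicate 2 was left out. The pyruvate dehydrogenase kinases Pdk1 and Pdk3 hold pyruvate back from the mitochondrion. *Pdk1* had 151.2, 172.1 and 165.1 CPM in sEH-/- and 161.1, 160.2 and 159.9 CPM in wild-type libraries, so that its wild-type values, with an SD of 0.66 CPM (n = 3), lay inside the sEH-/- range (log2 fold change 0.020, adjusted p = 0.89). *Pdk3* was at −0.10 (adjusted p = 0.56).

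**Figure D3:**
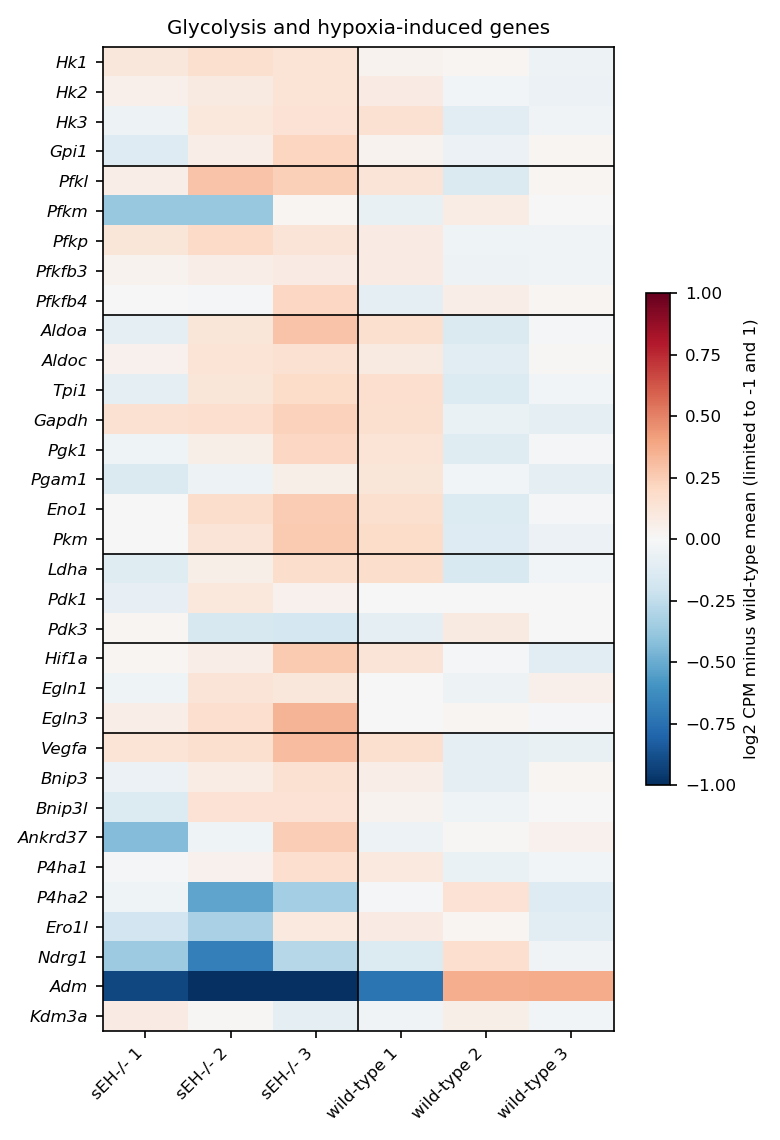
Log2 CPM of each of the 33 genes (rows, by role) in each of the 6 libraries (columns), minus the wild-type mean and limited to −1 and 1. Most glycolytic rows are pale, whereas *Pfkm* is blue in sEH-/- replicates 1 and 2, and *Ndrg1* and *Adm* are blue in all sEH-/- libraries.

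For most of these enzymes the values of one genotype ran into those of the other. As log2 CPM minus the wild-type mean, the 33 genes had medians of −0.040, 0.077 and 0.15 in the sEH-/- libraries, as against 0.081, −0.044 and −0.026 for wild-type. For the genes from aldolase to pyruvate kinase the medians were −0.023, 0.12 and 0.22 in the sEH-/- libraries, as against 0.16, −0.12 and −0.026 for wild-type. For the 33 genes this median was lower in each larger library, whatever its genotype. The smallest library, sEH-/- replicate 3, held the highest CPM of 18 of the 33 genes (15.2% of all tested genes), and the deepest, wild-type replicate 2, held the lowest of 15 (20.1% of all tested genes). Within the wild-type libraries, the smallest held the highest CPM of 23 of the 33 genes, beside 36.1% of all tested genes.

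Duplicate reads were removed by the authors, which can limit the number of distinct reads that a base of a transcript can start. The part of this step in the ratios below was not tested. Wild-type replicate 2 held 1.32 times the counts of wild-type replicate 1, but *Ldha*, *Pkm* and *Aldoa* held only 1.08, 1.09 and 1.10 times as many. Over the 10275 genes averaging 50 counts or more, the median ratio of these libraries was 1.46 at up to 0.05 counts per base of the longest coding transcript, 1.36 between 0.1 and 0.2, and 1.17 above 0.4, a bin with 617 genes. The 8 genes of the list above 0.4 counts per base had ratios between 1.08 and 1.27 (median 1.12). Low ratios also occurred at fewer counts per base. The 12 genes of the list between 0.2 and 0.4 ran from 1.10 (*Eno1*) to 1.34, with a median of 1.24 beside 1.28 for all genes. The 10 between 0.1 and 0.2 ran from 1.13 (*Pgk1*) to 1.53, with a median of 1.40. In the genotype comparison, all genes above 0.4 counts per base had a median log2 fold change of 0.074, and the 8 genes of the list one of 0.067. The median of all genes rose with counts per base. It was −0.069 up to 0.05, −0.041 from 0.05 to 0.1, −0.0090 from 0.1 to 0.2 and 0.023 from 0.2 to 0.4. Differences in such abundant genes can be understated, and the small positive median of these 8 genes is not set apart from that of their bin. Correcting the counts for a limit of 1 per base left the median of the 33 genes at 0.062 with 0 genes called, by exonic length or by the longest transcript. The library total as a covariate gave the 8 genes above 0.4 counts per base lower log2 fold changes than the main fit. Those of *Aldoa*, *Tpi1* and *Ldha* were then 0.034, 0.0044 and −0.030, against 0.11, 0.068 and 0.037, and the highest was *Vegfa* at 0.15, against 0.20. Whether either setting removes the dependence on library size was not tested.

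**Figure D4:**
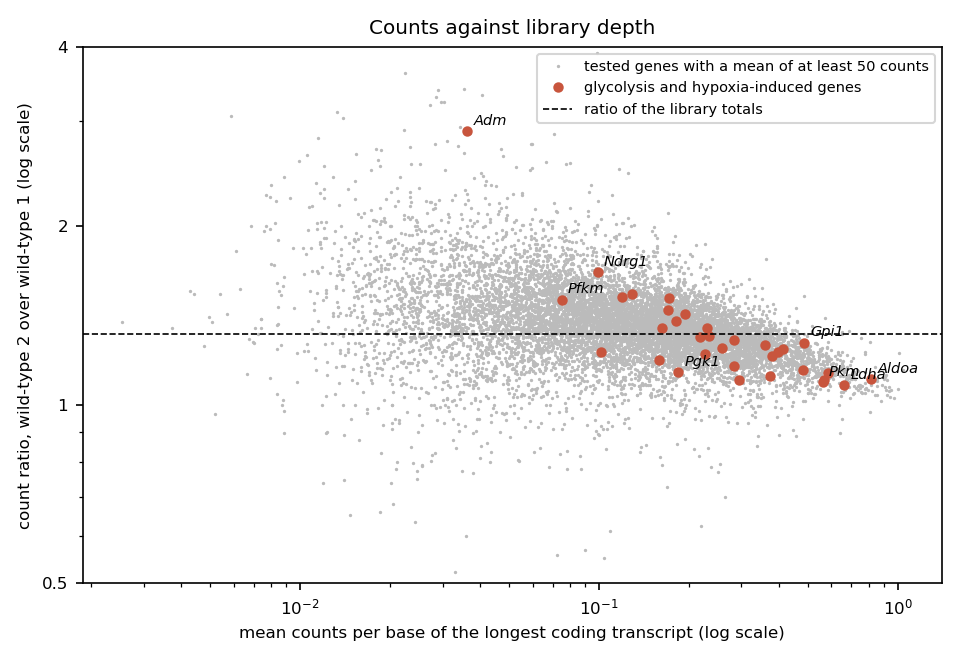
Ratio of the counts in wild-type replicate 2 to those in wild-type replicate 1 (y axis, log scale) against the mean counts per base of the longest coding transcript (x axis, log scale) for genes averaging 50 counts or more, the 33 genes in red. The dashed line is the ratio of the library totals, 1.32, and the most abundant glycolytic genes fall below it, down to 1.08 for *Ldha*.

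The 10 HIF targets outside glycolysis were divided, with 5 log2 fold changes above and 5 below 0 and a median of −0.030. *Adm* (chromosome 7, 110627661 to 110629820) was the gene of the list with the fewest counts, namely 41, 8 and 19 counts in the sEH-/- libraries against 36, 104 and 95 in wild-type. This corresponds to 7.01, 1.61 and 4.41 CPM (4.34 ± 2.701, SD, n = 3) and 7.91, 16.9 and 17.0 CPM (13.9 ± 5.22, SD, n = 3). The genotypes did not overlap, but sEH-/- replicate 1 and wild-type replicate 1 lay close together.

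The log2 fold change of *Adm* was −1.66 (SE 0.43, 95% interval −2.61 to −0.72, edgeR adjusted p = 0.0557). It was called with DESeq2 (−1.67, adjusted p = 0.0031) and with no filter on low counts (adjusted p = 0.027), and also without sEH-/- replicate 1 (−2.26, adjusted p = 0.030) or without wild-type replicate 1 (−1.93, adjusted p = 0.024). The change was smaller without sEH-/- replicate 2 (−1.26), the library with the fewest *Adm* counts, and without wild-type replicate 2 (−1.51) or replicate 3 (−1.50). Without any 1 of these libraries or sEH-/- replicate 3 (−1.65) its adjusted p was between 0.086 and 0.23, and with limma-voom it was 0.063. *Adm* held 0.036 counts per transcript base, in the range where the median ratio of counts given above was 1.46. All genes in that range had a median log2 fold change of −0.069 between the genotypes.

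*Ndrg1* (chromosome 15, 66929318 to 66969640) had 48.2, 38.5 and 50.8 CPM (45.9 ± 6.46, SD, n = 3) in sEH-/- and 56.5, 69.8 and 60.4 CPM (62.2 ± 6.82, SD, n = 3) in wild-type libraries, with all sEH-/- values below all wild-type values. The log2 fold change was −0.45 (SE 0.12, 95% interval −0.71 to −0.18, edgeR adjusted p = 0.0625). Its adjusted p lay below 0.05 with no filter on low counts (0.047) and without wild-type replicate 1 (0.049), and reached 0.28 without wild-type replicate 2. It stayed under a 1.5-fold change in every alternative and so was called in none. *Ndrg1* held 0.099 counts per transcript base, in the range from 0.05 to 0.1 where all genes had a median log2 fold change of −0.041.

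*P4ha2*, a catalytic subunit of the collagen prolyl hydroxylase, lies on chromosome 11 from 54100095 to 54131665. It had 54.6, 38.9 and 44.3 CPM in sEH-/- and 55.4, 62.1 and 51.4 CPM in wild-type libraries, and the genotypes overlapped through sEH-/- replicate 1 and wild-type replicate 3 (log2 fold change −0.29, SE 0.13, unadjusted p = 0.047, adjusted p = 0.21 from edgeR). Without sEH-/- replicate 1 its log2 fold change was −0.44, with an adjusted p of 0.048. *P4ha1*, the more abundant subunit of the same enzyme, had 285.7, 298.0 and 325.8 CPM in sEH-/- and 310.0, 276.7 and 283.6 CPM in wild-type libraries, with a log2 fold change of the opposite sign (0.064, adjusted p = 0.69).

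*Vegfa*, encoding the vascular endothelial growth factor, was the target with the most reads per kilobase of exon. It had 326.9, 332.3 and 368.4 CPM in sEH-/- and 332.4, 280.2 and 283.6 CPM in wild-type libraries, which overlapped only through wild-type replicate 1, and the fitted log2 difference of 0.20 (SE 0.091, edgeR adjusted p = 0.22) pointed away from those of *Ndrg1* and *Adm*. The mitophagy receptors *Bnip3* and *Bnip3l* were at 0.059 and 0.055, and the histone demethylase *Kdm3a* at 0.0043 (95% interval −0.15 to 0.16). *Ero1l*, an oxidase of protein folding in the endoplasmic reticulum, was at −0.13 (adjusted p = 0.48) and *Ankrd37*, a small ankyrin repeat protein, at −0.065 (adjusted p = 0.85). Among the 10 targets, *Adm* and *Ndrg1* had the largest absolute log2 fold changes.

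**Figure D5:**
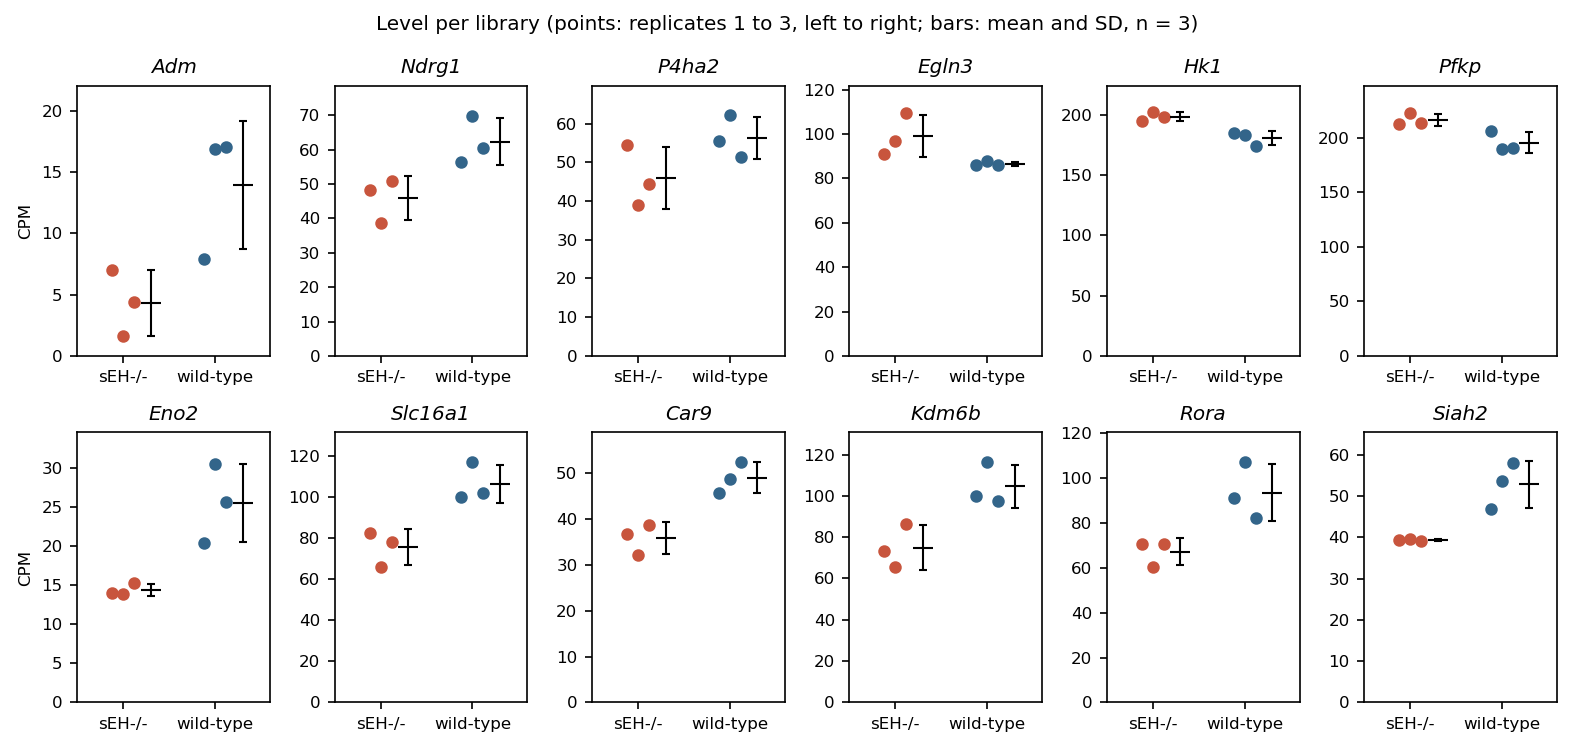
CPM (y axes, each from 0) in each library for 6 of the 33 genes (top) and 6 companion genes (bottom). Points are the 3 sEH-/- and 3 wild-type libraries, and bars give the mean and SD (n = 3). *P4ha2* is the gene whose genotypes overlap, while all other genes shown separate them, with *Adm* between 1.61 and 7.01 CPM in sEH-/- and between 7.91 and 17.0 CPM in wild-type libraries.

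Other genes of these pathways were taken from 7 lists of 116 genes in all, of which 108 were in the table and 100 had enough counts to be tested. Of these 100, 1 was called lower and 0 higher in sEH-/- cells, beside 1.1% of all tested genes called lower and 1.51% called higher. The called gene was *Eno2*, the neuronal enolase isoform, which is also a HIF target. It had 14.0, 13.9 and 15.3 CPM in sEH-/- and 20.5, 30.5 and 25.6 CPM in wild-type libraries, without overlap (log2 fold change −0.83, SE 0.17, edgeR adjusted p = 0.031). *Eno2* was called under 13 of 19 alternatives. Among the alternatives that ended its call were the library total as a covariate (adjusted p = 0.058), a test against the 1.5-fold threshold (0.85), and leaving out sEH-/- replicate 2 (0.098) or, in wild-type, replicate 2 (0.17) or replicate 3 (0.14).

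A further 5 of the 100 genes had an adjusted p below 0.05 with a change under the threshold, all lower in sEH-/- cells. With *Eno2* this made 6 lower and 0 higher, where 1.62% of all tested genes were lower and 2.39% higher by this criterion. *Slc16a1*, encoding the lactate and pyruvate transporter MCT1, had 82.6, 65.8 and 77.9 CPM in sEH-/- and 100.03, 116.8 and 101.8 CPM in wild-type libraries (log2 fold change −0.49, SE 0.099, edgeR adjusted p = 0.030). *Siah2*, given above, was another. The other 3, named after their values were seen, were *Car9*, a carbonic anhydrase that is a classical HIF target (−0.45, adjusted p = 0.045), the histone demethylase *Kdm6b* (−0.49, adjusted p = 0.041) and the nuclear receptor *Rora* (−0.48, adjusted p = 0.043). In none of these did the genotypes overlap. Over the 100 genes, the genotypes did not overlap in 18 genes that were lower and 4 that were higher in sEH-/- cells, beside 14.5% and 11.8% of all tested genes. Over 19 alternatives *Slc16a1* had an adjusted p below 0.05 in 13, *Car9*, *Kdm6b* and *Rora* in 12 each, and *Siah2* in 9.

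By list, the glucose and lactate transporters had a median log2 fold change of −0.074 over 7 genes, 3 of them above and 4 below 0. Those above 0 were *Slc2a6* (0.27, adjusted p = 0.20 from edgeR), *Slc16a3* (0.16, adjusted p = 0.26) and *Bsg* (0.054, adjusted p = 0.80). The genotypes did not overlap in *Slc16a3*. *Slc2a1*, the main glucose transporter of activated macrophages (GLUT1), had 247.7, 251.8 and 267.4 CPM in sEH-/- and 268.4, 263.2 and 275.3 CPM in wild-type libraries, which overlapped (−0.074, adjusted p = 0.57 from edgeR), and *Slc2a3* (GLUT3) was at −0.45 (SE 0.19, adjusted p = 0.20). Among 37 tested genes of a list of other hypoxia-induced genes, 16 were above and 21 below 0, with a median of −0.035. The 2 with the most extreme fits were *Ddit4*, an inhibitor of mTOR signaling (−0.67, SE 0.28, adjusted p = 0.18), and *Ppfia4* (0.63, SE 0.43, adjusted p = 0.41), both overlapping. The 8 tested genes of other isoforms of the glycolytic steps had a median of −0.18, with 7 below 0.

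Routes that branch from glycolysis lay close to wild-type. Of the pentose phosphate pathway, 8 genes were tested and none was called (2.61% of all tested genes were), with log2 fold changes from −0.016 to 0.16, the highest being those of *Pgd* (adjusted p = 0.41) and *H6pd* (adjusted p = 0.32). Of the pyruvate dehydrogenase complex with its kinases and phosphatases, 11 genes were tested and none was called either, where 2.61% of all tested genes were, with *Mpc1*, a mitochondrial pyruvate carrier subunit, at −0.22 (adjusted p = 0.35) and *Pdhb* at −0.14 (adjusted p = 0.27). All 17 genes of the tricarboxylic acid cycle had an absolute log2 fold change under 0.2, *Idh2* being at −0.18 (adjusted p = 0.24) and *Idh3g* at 0.19 (adjusted p = 0.35). At an unadjusted p below 0.05, 0 genes of these 3 lists (8, 11 and 17 tested) were found, beside 23.4% of all tested genes. The genotypes did not overlap in 0 of the 8, 2 of the 11 and 2 of the 17 genes, beside 26.3% of all tested genes. Those without overlap were all lower in sEH-/- cells, as were 14.5% of all tested genes. These shares were not compared at matched counts.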

How the data were processed

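Transcripts of M2c-polarized macrophages were sequenced in 6 libraries, 3 per genotype. Per the methods and labels, the authors trimmed and aligned reads (mm10, STAR), discarded duplicates as well as reads that mapped to several places, to ribosomal or to mitochondrial sequence, and counted what remained over exons by strand. The submitters' processing notes name Trimmomatic 0.39, STAR 2.7.7a, Picard 2.21.7, featureCounts 1.6.5 and DESeq2 1.30.0. The methods give other versions of some, and the labels and methods name different library kits. The values the authors deposited are raw counts for 19309 genes, without normalization.

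Here edgeR 4.0.16 in R 4.3.3 was used (TMM factors, quasi-likelihood F test, no covariates, two-sided). Tested were the 13785 genes whose mean exceeded 5 counts, with Benjamini-Hochberg adjustment over all of them. A call needed an adjusted p under 0.05 and a change over 1.5-fold. CPM use TMM-scaled library sizes. DESeq2 1.42.0 and limma 3.58.1 were alternatives. Lengths came from GENCODE M21, which held 19286 of the 19309 identifiers. The fit was tested on simulated counts with 200 genes changed.

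The 33 genes and the companion lists were chosen with earlier results of these data known. All 33 are named. Values in every library are given for those without overlap between the genotypes and for the 2 with the highest CPM per kilobase of exon in each role, and *P4ha2* was added after its values were seen. Of each companion list, called genes are named, or else the 2 with the largest change whose mean reached 50 counts, and the others were named after their values were seen. Promoters were taken from RefSeq. Replicates are separate mice per the study, and the labels do not name the mice.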

Additional observations from a re-analysis of the deposited data

How the results depend on the processing

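Of 593 log2 fold changes of the 33 genes under 18 alternatives (all planned but the ceiling by longest transcript, which was chosen after seeing the data), 574 kept their direction and their side of the threshold, 4 brought *Adm* past it and 15, in 7 genes with values near 0, turned sign. Dropping the fold threshold, the remaining alternative, changes calls and no fold change, and a minimum of 10 counts in every library removed *Adm*. Turned values were −0.030 (library total as covariate) and −0.0072 (ceiling by longest transcript) for *Ldha*, and −0.0011 for *Pdk1* and −0.016 for *Kdm3a* without TMM factors. With a library left out, ranges that crossed 0 were −0.019 to 0.14 for *Gpi1*, −0.00091 to 0.12 for *Pfkfb4*, −0.094 to 0.010 for *Pgam1*, −0.037 to 0.13 for *Ldha*, −0.0044 to 0.073 for *Pdk1*, −0.23 to 0.10 for *Ankrd37* and −0.036 to 0.056 for *Kdm3a*. The number of the 33 genes called was 1 with DESeq2, 1 with no filter on low counts, 0 to 1 with a library left out and 0 otherwise.

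Over all genes, 360 calls became 553 with no fold threshold, 10 when tested against the threshold, 171 with the library total as covariate and 6 to 625 with a library left out. DESeq2 called 472, limma-voom 307 and a fit with no filter 514. Of the companion genes, 1 call became 6 with no fold threshold, 0 when tested against it, 0 with the total as covariate and 0 to 3 with a library left out. With the replicate number as a block, 234 genes, 0 of the 33 and 0 companions were called, and *Eno2* had an adjusted p of 0.056. Same-numbered libraries did not deviate together (correlations −0.082, −0.26 and −0.037), which gave no sign that the numbers pair the samples. With 3 libraries per genotype such correlations cannot decide whether the samples were paired. The causes were not tested. *Adm* had the lowest mean count of the 33 genes tested (8 to 104 counts per library), and with counts corrected for the ceiling by exonic length their median log2 fold change was 0.062, against 0.064. Whether that correction removes the dependence on library size was not tested.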
